A study of Mus musculus with 12 samples.

Results

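F9 cells are a mouse teratocarcinoma line, grown as embryonal carcinoma stem cells that turn towards primitive endoderm when given retinoic acid (RA). RNA of F9 cells labelled as knockout for retinoic acid receptor gamma and kept for 24 h in 1 µM RA (KO_RA, 3 arrays) is compared here, gene by gene, with RNA of wild-type F9 cells given the same treatment (WT_RA, 3 arrays). These 6 arrays are the ones whose sources name the genotype and RA, out of 12 in the series. The other 6 hold the same cells in ethanol vehicle for 24 h, knockout (KO_vehicle, 3 arrays) and wild type (WT_vehicle, 3 arrays), and are used to see which genotype differences were already there without RA. The targeted gene is Rarg. The labels do not say whether the knockout line is 1 clone, how the gene was disrupted, or whether each array had a culture of its own. The p-values therefore measure the spread between these arrays, and a difference made by the loss of the receptor cannot be told apart from one that arose between the lines.

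RA enters the nucleus and binds retinoic acid receptors, which sit as pairs with retinoid X receptors on short direct repeats in DNA called retinoic acid response elements. Ligand binding exchanges corepressors for coactivators on these elements, and genes next to them are transcribed. Among the best known targets are Cyp26a1, whose product breaks RA down, Rarb, which encodes a second receptor of the family, and the Hox genes at one end of each cluster, which pattern the hindbrain and anterior trunk. In F9 cells the gamma receptor is known as a main mediator of RA-induced differentiation.

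Direct repeats of this kind can be read in the promoters of Rarb and Cyp26a1, taken here from RefSeq on GRCm38.p6 with 250 bases before and 50 bases after the start of each gene. They are shown because both genes were lower in KO_RA than in WT_RA. Capitals mark a pair of half-sites with 5 bases between them. The Rarb window lies on the minus strand at chr14:16575427-16575726 and the Cyp26a1 window on the plus strand at chr19:37697558-37697857.
Rarb: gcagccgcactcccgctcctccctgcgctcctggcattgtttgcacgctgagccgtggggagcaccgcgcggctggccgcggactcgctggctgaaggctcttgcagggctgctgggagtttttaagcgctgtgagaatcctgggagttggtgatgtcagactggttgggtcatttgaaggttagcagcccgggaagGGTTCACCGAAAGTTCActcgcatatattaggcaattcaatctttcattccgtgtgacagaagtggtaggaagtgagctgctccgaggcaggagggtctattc
Cyp26a1: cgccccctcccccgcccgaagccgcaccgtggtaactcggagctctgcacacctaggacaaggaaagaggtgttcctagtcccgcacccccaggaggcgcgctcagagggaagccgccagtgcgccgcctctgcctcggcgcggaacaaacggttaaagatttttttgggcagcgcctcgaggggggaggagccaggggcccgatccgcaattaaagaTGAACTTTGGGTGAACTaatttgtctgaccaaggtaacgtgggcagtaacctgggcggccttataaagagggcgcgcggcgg
The Rarb match reads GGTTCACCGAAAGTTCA on the strand of the gene and ends 36 bases before the start of transcription. The Cyp26a1 match reads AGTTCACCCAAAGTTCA on the opposite strand and ends 15 bases before the start. The search took as half-site the consensus AGGTCA as well as its variants, which were AGTTCA for the first, GGGTCA for another and finally GGTTCA, and asked for any 2 as a direct repeat with 5, 2 or 1 bases between, on both strands. Of 32851 promoters 0.0974% held a match with 5 bases between, 0.268% with 2 and 0.222% with 1. Of the 11 measured genes with a match of the first kind 4 had a mean signal above background. Of these 2, Rarb and Cyp26a1, were called lower in KO_RA, and the other 2 were not called. Among all genes tested 7.78% were called lower, and among genes above background 9.52% to 20.6% by chromosome, chromosome 11 aside. With 2 bases between, Tinagl1 was called lower (-1.74, adjusted p = 9.5e-05). With 1 base between, Igsf23 (0.97, adjusted p = 0.00226) and Nol7 (0.46, adjusted p = 0.0191) were called higher. A match is a description of these windows, not a shown binding site.

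The deposited values are MAS5 signals, a linear measure of the brightness of a probe set. Differences are given as log2 of signal + 16 in KO_RA minus the same in WT_RA, with the standard error (SE) from limma, and a gene is called at a Benjamini-Hochberg adjusted p under 0.05 over all 45037 probe sets. A level of 89.3, taken from sensory receptor genes that these cells have no known use for, stands for background. Where all 3 arrays of the dimmer group lie below it, only a lower limit of the fold is given. Median signals of the 6 RA arrays ran from 71.3 to 94.9. Each of 3 fluidics runs held 1 array of every group, and values are listed in the order of runs 1, 2 and 3. The run was a block in the fit. Run 1 holds the arrays with a letter as title code, and runs 2 and 3 those with a number. By the array records all 3 KO_RA arrays were on module 4 and all 3 WT_RA arrays on module 2. The block cannot remove an effect of the module, which cannot be told apart from genotype with RA. In vehicle the modules were 3, 3 and 1 for KO_vehicle and 1, 1 and 3 for WT_vehicle. Over the 10665 genes above background, arrays correlated at 0.959 to 0.981 within KO_RA and 0.966 to 0.985 within WT_RA, and at 0.902 to 0.932 between the groups. The KO_RA array of run 1 stood apart: 291 genes lay over 1 log2 unit below both other KO_RA arrays, against 66 and 51 for the arrays of runs 2 and 3 and 138, 50 and 34 for the WT_RA arrays. The vehicle arrays of run 1 stood apart more. There 598 genes lay as far below both others in WT_vehicle and 351 in KO_vehicle, where 470 lay as far above. The KO_vehicle array of run 1 also had the highest median signal of the series (143). Counts without run 1 are therefore given beside the gene groups, and counts with arrays centred on their medians where these differ much.

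Rarg itself gave signals of 1026, 1549.6 and 1495 in KO_RA and 1471, 1232 and 1027 in WT_RA. The 2 groups overlapped, and the difference was 0.12 (SE 0.17, adjusted p = 0.821), or -0.51, 0.33 and 0.53 within the runs. Without run 1 it was 0.43 (adjusted p = 0.0113), with more signal in KO_RA. A second probe set gave 942, 1018 and 942 in KO_RA and 823, 732 and 657 in WT_RA (difference 0.39, adjusted p = 0.174). The position of both probe sets against the disruption was not given in the labels, so these signals check no genotype. Of the 12 nearest genes above background around Rarg in gene order, 6 on each side, Igfbp6, a binding protein of insulin-like growth factors, was the 1 that was called (difference -1.42, adjusted p = 0.0093).

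In all, 1230 of 18193 genes (6.76%) were called higher and 1416 (7.78%) lower in KO_RA than in WT_RA. Of these, 265 were higher and 629 lower by at least 2-fold. The median difference over all genes was -0.05. The 3 KO_RA arrays did not overlap with the 3 WT_RA arrays in 2371 of the 2646 called genes. A call favours groups that lie apart, and the share without overlap over all genes was not counted. This number is therefore no support beyond the calls.

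Genes that handle retinoids were lower or not called in KO_RA. Of 27 measured members of retinoid metabolism 0 were called higher and 6 lower (5 without run 1), with a median of -0.24. Crabp2, which carries RA in the cytoplasm to its receptors, gave 222, 175 and 146 in KO_RA against 2569.8, 1485 and 1633 in WT_RA. All 3 KO_RA values lay far below the lowest WT_RA value, with a difference of -3.26 (SE 0.32, adjusted p = 2.85e-07). Cyp26a1 gave 672, 1576 and 1699 in KO_RA and 6271, 6681 and 6993 in WT_RA. The groups did not overlap, and the array of run 1 was the lowest of KO_RA (difference -2.43, SE 0.24, adjusted p = 2.47e-07). Cyp26b1, another RA-degrading enzyme, stayed under the background level on all 3 KO_RA arrays (34, 76.8 and 84.8) and reached 232, 303 and 350.2 in WT_RA, at least 2.92-fold lower (adjusted p = 0.0161, 0.0534 without run 1). Stra6, the cellular transporter of retinol, gave 172, 191 and 93.1 in KO_RA and 542, 537 and 463 in WT_RA. Its difference of -1.70 (adjusted p = 0.0166) lost its call without the run block (adjusted p = 0.0702). Rdh10, which makes retinal from retinol, was lower by a smaller amount (-1.45, adjusted p = 3.94e-05), as was Fabp5, a fatty acid binding protein that also takes up RA (-0.92, adjusted p = 0.00343). Fabp5 was at 3493 on the KO_RA array of run 1, above all WT_RA arrays, and at 1154 and 1211 on the other 2, and its difference had an adjusted p of 0.131 without the block.

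Receptors and coregulators moved both ways. Of 24 measured members 5 were called higher and 5 lower (7 and 5 without run 1; 2 and 3 after centring), with a median of -0.15. Rarb gave 353, 486 and 554 in KO_RA and 1542, 1955 and 2158 in WT_RA. The groups lay well apart within each run (differences of -2.08, -1.97 and -1.93), and the fit gave -1.99 (SE 0.20, adjusted p = 3.91e-07). Rara, the alpha receptor of the same family, was higher by 0.70 (adjusted p = 0.0122, 0.0586 without the block), at 547, 572 and 506 in KO_RA and 374, 348 and 266 in WT_RA. Rara lies on chromosome 11, whose genes as a whole differed between the lines (described last). Rxrb, a partner receptor, was lower by 0.57 on the log2 scale (difference -0.57, adjusted p = 0.0134, 0.0787 without the block). Nrip1, a corepressor that RA is known to induce, was lower (-1.03, adjusted p = 1.41e-05). So was Tbl1x, a part of corepressor complexes (-0.53, adjusted p = 0.0111, 0.133 without the block). The orphan receptors on this list split: Esrrb was lower (-1.29, adjusted p = 5.78e-08), while Nr6a1 (1.07), Nr5a2 (0.79) and Nr0b1 (0.70) were higher, as was the corepressor Sin3a (0.57).

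Of 26 measured genes widely described as RA targets in such cells 17 were called lower and 1 higher (16 and 3 without run 1), with a median of -1.05, where -0.05 is the median of all genes. The 1 that was higher was Gbx2, a transcription factor of the anterior hindbrain (1.21). Tgm2, a transglutaminase induced by RA in many cells, gave 136, 79.6 and 53.1 in KO_RA and 1024, 749.8 and 849.6 in WT_RA. The difference was -3.14 (SE 0.33, adjusted p = 6.19e-07), with 2 KO_RA arrays under background. Stra8, which RA induces in germ cells as they enter meiosis, was not called: it gave 12864, 13635 and 12424 in KO_RA and 14701, 9359.6 and 9753 in WT_RA. These overlapped, with a difference of 0.23 (adjusted p = 0.342) that became 0.45 (adjusted p = 0.00478) without run 1. The Stra8 values of the cells labelled knockout thus did not stand apart from those of wild-type cells on all 3 runs.

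**Figure D1:**
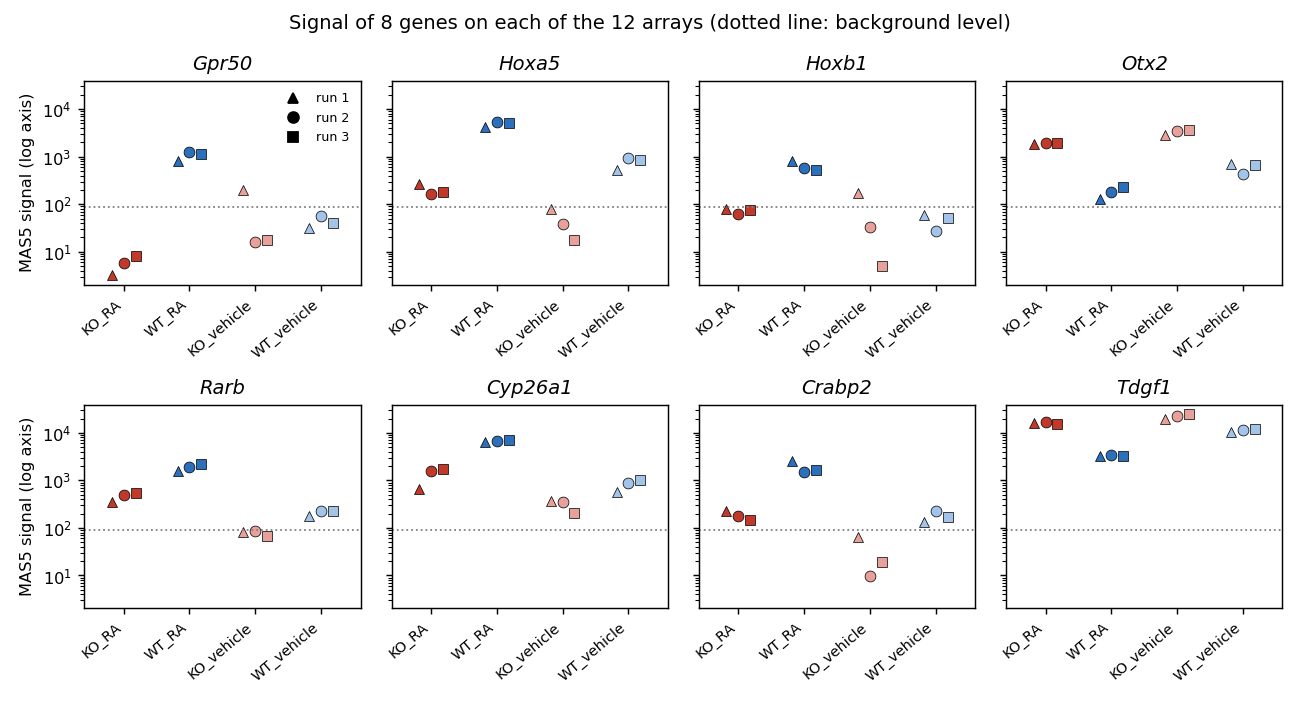
MAS5 signal (log axis) of 8 genes on each of the 12 arrays, grouped as KO_RA, WT_RA, KO_vehicle and WT_vehicle, with the marker showing the fluidics run and the dotted line the background level of 89.3. Gpr50 and Hoxb1 rise above the line on all 3 WT_RA arrays and on none of the KO_RA arrays, while Otx2 and Tdgf1 are higher in KO_RA than in WT_RA and higher in KO_vehicle than in WT_vehicle.

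Hox genes of paralog groups 1 to 5 formed the group with one of the lowest medians. Of 13 measured members 8 were called lower and 0 higher (9 and 0 without run 1), with a median of -2.09. Hoxa5, which patterns the cervical and lung region, gave 261, 161 and 185 in KO_RA and 4312, 5418 and 5164 in WT_RA. Every KO_RA array lay far under every WT_RA array, with a difference of -4.53 (SE 0.28, adjusted p = 3.88e-10). The other Hoxa5 probe set was not called. The cluster neighbours Hoxa4 (-3.11, adjusted p = 0.000986), Hoxa3 (-2.68, adjusted p = 0.000132) and Hoxa2 were lower as well, the last at least 1.62-fold (adjusted p = 0.0113). Hoxb1, an early hindbrain gene, gave 80.6, 61.7 and 77.1 in KO_RA, all under background, against 793, 575 and 522 in WT_RA. It was at least 6.04-fold lower (adjusted p = 0.000387). Hoxb2 (-2.31, adjusted p = 0.000632) and Hoxb3 (-1.79, adjusted p = 0.00706) followed it, although both lie on chromosome 11, and Hoxc4 was at least 1.31-fold lower (adjusted p = 0.00414). Of 20 measured Hox genes of groups 6 to 13 2 were called, Hoxa10 and Hoxa11 (4 without run 1, all lower). Both were lower, by at least 3.75-fold (adjusted p = 9.57e-05) and at least 1.85-fold (adjusted p = 0.00345). They are 10.0% of the measured members, where 7.78% of all genes were called lower. Most members of that list gave little signal anywhere: 2 of the 20 had a mean above background.

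Of 15 measured genes that act upstream of or with Hox proteins 4 were called lower and 1 higher (4 and 1 without run 1; 2 and 0 after centring). Cdx1, a caudal-type regulator of Hox genes and a known RA target, gave 55.3, 73.9 and 4.41 in KO_RA and 401, 683 and 423 in WT_RA, at least 4.79-fold lower (adjusted p = 0.000172). Meis1, a cofactor that binds DNA with Hox proteins, was lower by 2.24 on the log2 scale (difference -2.24, SE 0.24, adjusted p = 9.33e-07), and Meis2 by less (-1.06, adjusted p = 0.000227). Tgif1, a repressor related to Meis proteins, was higher (0.59, adjusted p = 0.000546).

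Gpr50, a melatonin receptor relative without a known ligand, was on in WT_RA and under background in KO_RA. It gave 3.21, 5.87 and 8.04 in KO_RA, all under background, against 805, 1271 and 1133 in WT_RA. It was at least 10.1-fold lower (adjusted p = 5.1e-07). In vehicle it gave 202, 16.2 and 17.4 in KO_vehicle and 31.8, 56.2 and 41.2 in WT_vehicle, with no difference called (adjusted p = 0.958). Gpr50 thus stood above background in WT_RA alone, apart from the KO_vehicle array of run 1.

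Markers and regulators of primitive endoderm were the group with the largest share of calls. Of 22 measured members 18 were called lower and 1 higher in KO_RA (17 and 2 without run 1), with a median of -2.13. Srgn, a proteoglycan of secretory granules that is abundant in parietal endoderm, gave 186, 546 and 612 in KO_RA and 14626, 16268 and 16411 in WT_RA. The difference was -5.25 (SE 0.20, adjusted p = 2.52e-13). Pdgfra, a receptor that marks primitive endoderm, gave 48.2, 192 and 253 in KO_RA and 2048, 2010.0 and 1965 in WT_RA (-3.72, SE 0.31, adjusted p = 2.15e-08). The transcription factors that specify this lineage were lower too: Sox17 by 3.44 on the log2 scale (difference -3.44, adjusted p = 3.61e-07), Gata4 (-2.64, adjusted p = 7.84e-07) and Gata6 (-2.04, adjusted p = 8.47e-05). Krt8, a keratin of simple epithelia, gave 422, 346 and 475 in KO_RA and 2398, 2457 and 2134 in WT_RA (-2.45, adjusted p = 5.68e-10), and its partner keratin Krt18 was lower as well (-1.32). The member called higher was Krt19, another keratin: 256, 2066 and 1889 in KO_RA against 149.7, 68.4 and 144 in WT_RA. Its difference of 2.97 (adjusted p = 0.000229) was 0.71 within run 1 and 4.62 and 3.58 within runs 2 and 3.

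The KO_RA array of run 1 was the lowest of its group for 16 of the 18 endoderm genes called lower. Cubn, an endocytic receptor of visceral endoderm, gave 49 on this array and 1185 and 1339.9 on the other KO_RA arrays, against 6227, 11087 and 10671 in WT_RA. Dab2, an endocytic adaptor of the same cells, gave 198, 1430.2 and 1609.9 in KO_RA and 6506, 8382 and 7895 in WT_RA. The differences were -4.26 (adjusted p = 5.06e-06) for Cubn and -3.25 (adjusted p = 1.05e-05) for Dab2. Without run 1 the differences were smaller, -3.09 (adjusted p = 1.34e-10) and -2.41 (adjusted p = 1.1e-09). Across the 18 genes the median difference within runs 1, 2 and 3 was -3.11, -2.23 and -1.89. In bulk RNA fewer endoderm-like cells and less of these transcripts per cell cannot be told apart.

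**Figure D2:**
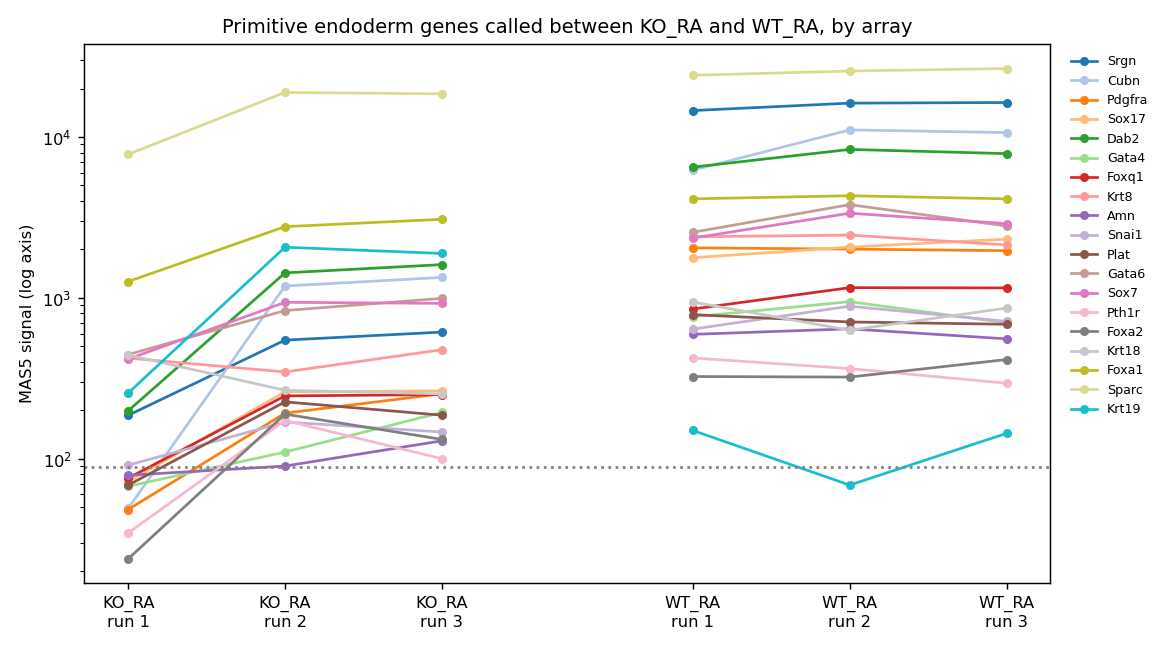
MAS5 signal (log axis) of the 19 primitive endoderm genes called between KO_RA and WT_RA, on each of the 3 KO_RA and 3 WT_RA arrays, with lines joining the values of 1 gene within a group and the dotted line at the background level. The KO_RA values lie below the WT_RA values for 18 genes and above them for Krt19, and the KO_RA array of run 1 is lowest for 16 of the 18.

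Visceral endoderm and basement membrane genes followed the same direction with fewer calls. Of 28 measured visceral endoderm members 8 were called lower and 0 higher (7 and 2 without run 1), and 10 lay under background on all 6 RA arrays. Apoe, which encodes an apolipoprotein, gave 1457, 1028 and 1086 in KO_RA and 6636, 5047 and 6051 in WT_RA (-2.30, SE 0.14, adjusted p = 3.99e-10). Dkk1, a secreted Wnt inhibitor of anterior visceral endoderm, gave 55.9, 111 and 117 in KO_RA and 692, 1145 and 1108 in WT_RA (-3.19, adjusted p = 7.8e-09). Among 31 basement membrane genes 13 were called lower and 0 higher (12 and 3 without run 1), with a median of -0.53. Serpinh1, the collagen chaperone, gave 2013, 3434 and 3491 in KO_RA and 10742, 14306 and 13588 in WT_RA (-2.14, adjusted p = 4.47e-09). The laminin chain gene Lamb1 (-2.02, adjusted p = 6.46e-07) and the collagen IV chain gene Col4a2 (-2.17, adjusted p = 1.45e-05) went with it. Col4a2 was at 544 on the KO_RA array of run 1 and at 3198 and 3012 on the others, and its difference without run 1 was -1.50 (adjusted p = 4.35e-08).

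Stem cell genes were called higher in KO_RA more often than lower. Of 51 measured pluripotency genes 25 were called higher and 9 lower (26 and 10 without run 1; 19 and 5 after centring), with a median of 0.58 that was 0.60, 0.50 and 0.56 within the runs. Tdgf1, the Nodal co-receptor Cripto, gave 15960.0, 16868 and 15517 in KO_RA and 3229.7, 3406 and 3217 in WT_RA. The groups were tight and far apart, with a difference of 2.29 (SE 0.11, adjusted p = 1.01e-11). Otx2, a homeobox factor of epiblast and anterior neural tissue, gave 1809, 1963 and 1903 in KO_RA and 128, 177 and 228 in WT_RA (3.33, SE 0.17, adjusted p = 3.37e-11). Fgf4, the fibroblast growth factor secreted by such stem cells, gave 3629.5, 3186 and 2752 in KO_RA and 907, 725 and 622 in WT_RA (2.07, adjusted p = 1.19e-10). Dnmt3l, a cofactor of DNA methyltransferases in germ cells and stem cells, was higher by 2.59 (SE 0.16, adjusted p = 4.38e-10).

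The core factors moved less than these. Sox2 was higher by 1.26 (adjusted p = 1.56e-07), Zfp42, also known as Rex1, by 1.18 (adjusted p = 1.43e-06) and Nanog by 0.50 (adjusted p = 0.00447, 0.321 with arrays centred on their medians). Nanog gave 11210.0, 8616 and 9151 in KO_RA and 6903, 6632 and 6766 in WT_RA, so that the ranges were apart by less than in the genes above. Factors tied to naive pluripotency were called both ways: beside Zfp42 and Nr5a2, Klf2 (0.96) and Prdm14 (1.08) were higher, and others were among the 9 members called lower. Tfcp2l1 gave 719, 1286 and 1476 in KO_RA and 3759, 5574 and 5902 in WT_RA (-2.15, adjusted p = 1.5e-10). Klf4 was lower by 1.44 on the log2 scale (difference -1.44, adjusted p = 8.31e-08), together with Esrrb, Tbx3 (-1.28), Lefty2 (-1.16), Lefty1 (-0.63) and Klf5 (-0.53). With arrays centred on their medians Lefty1 and Klf5 lost their calls (adjusted p = 0.458 and 0.685).

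**Figure D3:**
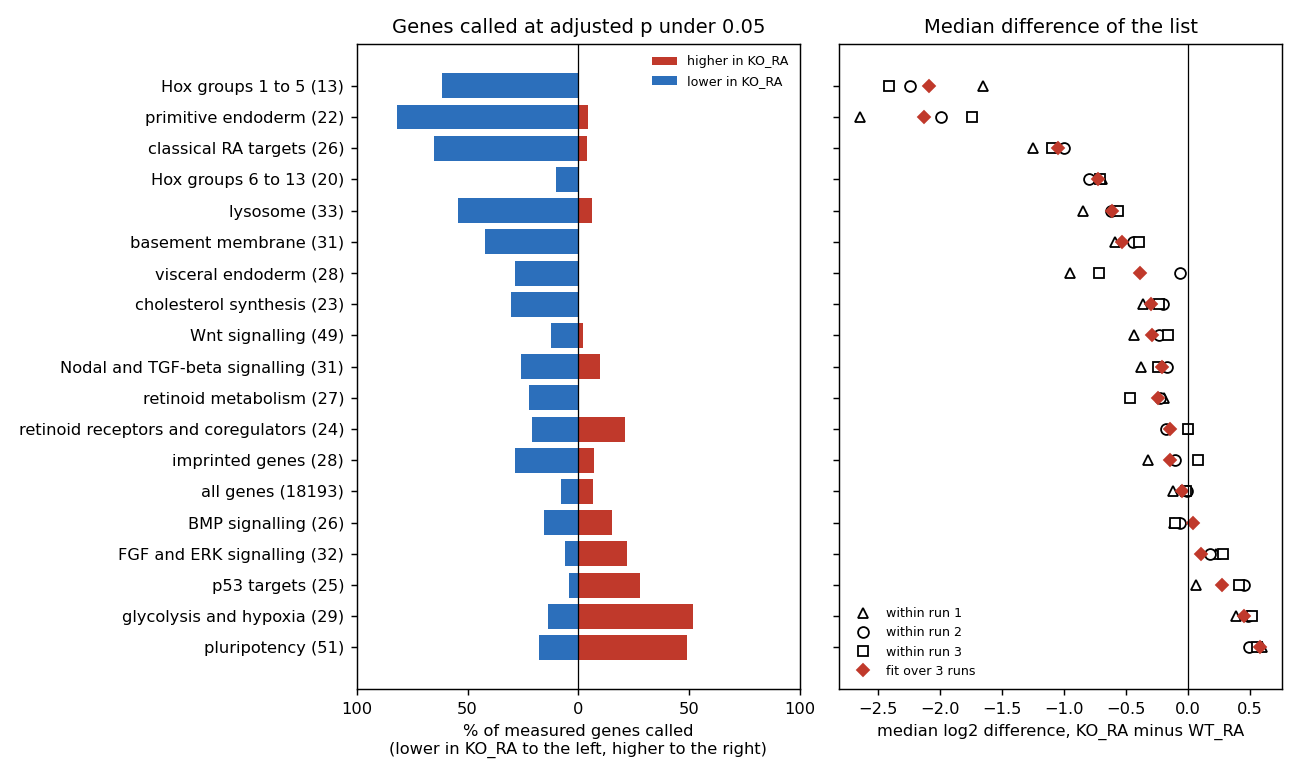
Left, the percentage of measured genes of each list (number in parentheses) called lower in KO_RA (bars to the left) or higher (bars to the right). Right, the median log2 difference KO_RA minus WT_RA of the same lists within each fluidics run (open markers) and in the fit (filled), with Hox groups 1 to 5 and primitive endoderm near -2 and pluripotency and glycolysis near 0.5.

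In the FGF and ERK list 7 of 32 measured genes were called higher and 2 lower (10 and 2 without run 1; 5 and 2 after centring). Beside Fgf4, the early response gene Ier3 was higher (1.59, adjusted p = 4.27e-06), as was Dusp6, a phosphatase that ERK signalling induces (0.69, adjusted p = 0.000811). The 2 lower members were Fgfr2, a receptor of this family used by primitive endoderm (-2.04, adjusted p = 2.37e-07), and the phosphatase Dusp4 (-2.20, adjusted p = 1.21e-06). Of 49 measured Wnt genes 6 were called lower and 1 higher (7 and 1 without run 1). These are 12.2% and 2.04%, where 7.78% and 6.76% are the shares over all genes. The secreted antagonist Sfrp5 gave 65.2, 144 and 57.9 in KO_RA and 606, 1001 and 899.6 in WT_RA (-3.08, SE 0.31, adjusted p = 4.09e-07). Another antagonist, Sfrp2 (-1.79, adjusted p = 5.68e-08), and the receptor Fzd7 (-1.40, adjusted p = 6.81e-08) were lower with it and with Dkk1.

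In the Nodal and TGF-beta list 3 of 31 measured genes were called higher and 8 lower (5 and 8 without run 1; 1 and 4 after centring). Tdgf1 was higher and the TGF-beta co-receptor Tgfbr3 lower (-2.55, SE 0.18, adjusted p = 2.74e-09), with 248, 354 and 537 in KO_RA against 1873, 2261 and 2520.3 in WT_RA. Inhbb, a subunit of activin, was also lower (-1.25, adjusted p = 5.7e-07). Of 26 BMP genes 4 were called each way (6 higher and 4 lower without run 1; 3 and 2 after centring). Bmp6 was under background on all 3 KO_RA arrays (12, 64.9 and 53) and gave 509, 481 and 578 in WT_RA, at least 5.1-fold lower (adjusted p = 4.96e-07). Id2, a target of BMP signals, was higher (1.18, adjusted p = 2.98e-05). Lifr, the receptor of leukaemia inhibitory factor, gave 1194, 1516 and 1904 in KO_RA and 2639, 4241 and 4512 in WT_RA (-1.28, adjusted p = 2.12e-07).

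Metabolic genes differed as well. Of 29 measured genes of glycolysis and hypoxia 15 were called higher and 4 lower (17 and 5 without run 1; 6 and 0 with arrays centred on their medians), with a median of 0.46. Slc16a3, which exports lactate, gave 2510.4, 6754 and 4905 in KO_RA and 810.1, 1027 and 796 in WT_RA (2.30, SE 0.17, adjusted p = 3.09e-09). Pdk1, a pyruvate dehydrogenase kinase (1.51, adjusted p = 1.31e-07), and Bnip3, a hypoxia-induced mitophagy receptor (1.53, adjusted p = 4.52e-07), were higher too. In contrast, 18 of 33 lysosomal genes were called lower and 2 higher (18 and 2 without run 1; 9 lower and 2 higher after centring), with a median of -0.61. Ctsc, the dipeptidyl protease cathepsin C, gave 1018, 843 and 815 in KO_RA and 6095, 7001 and 6722 in WT_RA (-2.87, SE 0.12, adjusted p = 1.03e-12). The proteases Lgmn (-1.93) and Ctsa (-1.87) and the hexosaminidase subunit Hexa (-2.09) were lower alongside it. Of 23 genes of cholesterol synthesis 7 were called lower and 0 higher (9 and 0 without run 1; 1 and 0 after centring), with Hmgcs1, an early enzyme of the pathway, at -1.18 (adjusted p = 1.27e-06). The metallothioneins, which bind zinc and copper, were both higher: Mt2 gave 19989, 20448 and 22594 in KO_RA and 3715, 4125 and 4788 in WT_RA (2.32, adjusted p = 2.82e-12), and Mt1 was higher by 2.19 (adjusted p = 6.09e-11).

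Several imprinted genes were at or near background in KO_RA. Of 28 measured members 8 were called lower and 2 higher (7 and 2 without run 1). Mest, expressed from the paternal allele, gave 79.2, 65.4 and 114 in KO_RA and 1646, 3223 and 2677 in WT_RA (-4.60, SE 0.21, adjusted p = 2.82e-12), with 2 KO_RA arrays under background. Meg3, a maternally expressed long RNA, was under background on all 3 KO_RA arrays (25.8, 69.8 and 80.3) and gave 1089, 1532 and 1498 in WT_RA (adjusted p = 2.51e-07). Plagl1, an imprinted zinc finger gene, was lower by less (-2.33, adjusted p = 2.65e-08), with 1159 on the KO_RA array of run 1 and 5136 and 5623 on the others, against 11260.0, 20101 and 19243 in WT_RA.

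The largest rises were mostly in genes outside these programmes. Slc38a4, an amino acid transporter, gave 2380.0, 2047 and 2077 in KO_RA and 78.7, 90.5 and 8.47 in WT_RA (5.12, SE 0.34, adjusted p = 9.64e-10), and 2 of the 3 WT_RA arrays were under background. Aire, the regulator of tissue antigens in the thymus, gave 1118, 1551 and 1444 in KO_RA and lay under background in WT_RA (80, 14.8 and 20.1), at least 13.1-fold higher (adjusted p = 7.34e-10). The testis and germ cell list had 9.09% of its measured members called each way, near the shares over all genes (6.76% higher, 7.78% lower). Fmr1nb and Mageb16, 2 genes known from testis, were high in KO_RA. Fmr1nb was at 3837, 3852 and 3652 in KO_RA and 286, 232 and 270.0 in WT_RA (3.77, SE 0.14, adjusted p = 8.29e-14), and Mageb16 was higher by 3.54 (adjusted p = 6.81e-09). Rec114, a gene of meiotic recombination, was at least 7.51-fold higher (adjusted p = 1.46e-08) and Lncenc1, a long RNA of embryonic stem cells, at least 5.23-fold (adjusted p = 7.15e-06). Stmn2, a microtubule regulator of neurons (2.48, adjusted p = 3.72e-09), and the small nucleolar RNA host gene Snhg3 (2.79, adjusted p = 5.82e-10) were higher, both most on the KO_RA array of run 1.

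Other large falls were in genes of varied function. Nostrin, an adaptor of endothelial nitric oxide synthase, gave 5.07, 77.3 and 7.65 in KO_RA and 497, 1202 and 859 in WT_RA, at least 7.77-fold lower (adjusted p = 6.17e-08). Bmper, a secreted BMP modulator, was at least 5.49-fold lower (adjusted p = 5.32e-08) and Ednrb, an endothelin receptor, at least 4.93-fold (adjusted p = 2.54e-05). Tgfbi, a matrix protein induced by TGF-beta (-3.47, adjusted p = 1.22e-07), the collagen gene Col13a1 (-3.61, adjusted p = 1.04e-08) and the transcription factor Runx1 (-3.57, adjusted p = 4.58e-07) were lower without overlap of the groups. Tex13b, a gene known from testis, gave 66.3, 29.1 and 15.1 in KO_RA and 382, 724 and 679.7 in WT_RA, at least 5.6-fold lower (adjusted p = 2.43e-06).

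The other lists had fewer calls or calls both ways, and many of their counts moved with the processing. Over all 18193 genes 6.76% were called higher and 7.78% lower (1599 and 1608 genes without run 1; 449 and 477 after centring). Shares near these, such as those of the testis, meiosis and mitosis lists, are not a result about the members. Of the 1230 higher calls 1213 lay among the 10665 genes above background. Off chromosome 11, 886 of 9714 such genes were called higher and 1291 lower. Mitosis (34 of 34 above background), secretory pathway (39 of 39) and G1 (30 of 30) genes are to be set against these larger shares. Neural and ectoderm genes had 8 of 45 measured members higher and 5 lower (6 and 6 without run 1; 7 and 2 with arrays centred on their medians), and epithelial genes 10 higher and 9 lower of 41 (11 and 9; 10 and 7). Primitive streak and mesoderm genes had 0 higher and 3 lower of 29 (0 and 3 without run 1; 0 and 1 after centring) and trophectoderm genes 2 of 20 each way (3 and 2; 2 and 0). Regulators of G1 had 2 of 30 higher and 6 lower (2 and 11 without run 1; 2 and 2 after centring). Genes of mitosis and replication had 3 of 34 higher and 4 lower (3 and 7 without run 1), and 0 either way after centring or without the run block. DNA methylation and Polycomb genes had 8 of 37 higher and 6 lower (9 and 6 without run 1; 4 and 0 after centring; 4 and 2 without the block). Testis and germ cell antigens had 3 of 33 each way (3 and 3 without run 1; 3 and 1 after centring) and meiosis genes 2 of 25 each way (3 and 2; 1 and 0). Amino acid transporters had 3 of 35 higher and 9 lower (4 and 12 without run 1; 2 and 4 after centring), and secretory pathway genes 3 of 39 higher and 8 lower (5 and 12; 0 and 1). Targets of p53 had 7 of 25 higher and 1 lower (12 and 1 without run 1; 0 and 0 after centring). Ribosomal protein genes had 6 of 26 higher and 0 lower (13 and 0 without run 1; 1 and 0 after centring). Housekeeping genes had 2 of 13 called each way (3 and 2; 0 and 1), and retroviral and stress genes 6 of 25 higher and 4 lower (7 and 5; 4 and 1). Some genes stand on several lists, such as Cubn among both endoderm lists and Tdgf1 among pluripotency and Nodal genes.

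Most markers of other cells a culture could hold had a mean signal under background. Of 23 measured blood markers the 1 called was Srgn, lower, which is also an endoderm gene, and 11 of the 23 lay under background on all 6 RA arrays. The blood list summed to 2846 to 3175 in KO_RA and 18082 to 19005 in WT_RA, where Srgn alone gave 14626, 16268 and 16411. Of 27 fibroblast and muscle markers 2 were called lower (0 after centring or without the block), Des and Tnnt1, and 15 were under background on all 6 arrays. The summed signal of that list ran from 1832 to 2086 in KO_RA and 2321 to 2627 in WT_RA. Of 18 endothelial markers 1 was called higher, Pecam1 (1.26), which stem cells also express, and 2 lower, Cdh5 and Plvap, with sums of 3424 to 3969 in KO_RA and 3286 to 3373 in WT_RA. The part of these markers in the differences above was not tested.

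Most of the genotype difference was also present without RA. In vehicle 1051 genes (5.78%) were called higher and 1414 (7.77%) lower in KO_vehicle than in WT_vehicle, on arrays not used for KO_RA or WT_RA. With arrays centred on their medians the split in vehicle was 125 higher and 928 lower, and without run 1 it was 1300 and 1554. Of the 2646 genes called with RA 1626 (61.5%) were also called in vehicle, all of them in the same direction, and these were 66.0% of the 2465 vehicle calls. The differences with RA and in vehicle correlated at r = 0.77 across the 10665 genes above background, which are not independent replicates. Otx2 gave 2822, 3538 and 3644 in KO_vehicle and 701, 441 and 679.8 in WT_vehicle, and Srgn gave 203, 582 and 568 in KO_vehicle and 11824, 15596 and 16203 in WT_vehicle. The vehicle differences were 2.45 for Otx2, against 3.33 with RA, and -5.08 for Srgn, against -5.25 with RA. Primitive endoderm had 19 of 22 members lower and 1 higher in vehicle, and lysosomal genes 19 of 33 lower and 1 higher.

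**Figure D4:**
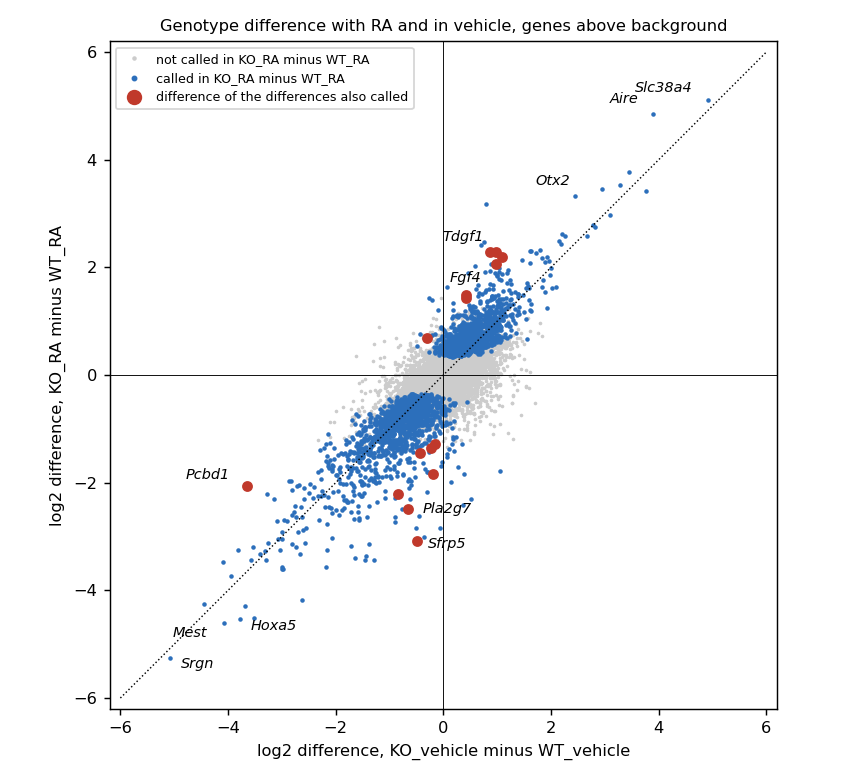
Log2 difference KO_RA minus WT_RA (vertical) against KO_vehicle minus WT_vehicle (horizontal) for the 10665 genes above background, with the dotted line where both are equal. Srgn and Slc38a4 lie near the line. Hoxa5 and Aire lie further from it, but their 2 differences were not called as unequal. Tdgf1, Fgf4, Sfrp5 and Pla2g7 are among the 15 genes in red, whose 2 differences were called as unequal and whose mean is above background.

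Hox genes of groups 1 to 5 had few calls in vehicle. There 2 of 13 members were called lower, Hoxa5 (79.8, 38 and 17.8 in KO_vehicle against 525, 948 and 844 in WT_vehicle, adjusted p = 4.53e-09) and Hoxa3 (adjusted p = 0.000759), both under background on all 3 KO_vehicle arrays. The list had a fitted median of 0.17 against -2.09 with RA. Hoxa2, Hoxa4, Hoxb1, Hoxb2, Hoxb3 and Hoxc4 were under background on all 3 WT_vehicle arrays, so lower values in the knockout could not be seen there. The few calls and the median in vehicle thus do not show that the genotypes were alike without RA. Hoxb1 gave 174, 33 and 5.14 in KO_vehicle and 58.1, 27.8 and 52.1 in WT_vehicle, so that 5 of these 6 values were under background. Whether the genotype difference itself changed with RA was tested gene by gene: 16 of 18193 genes (0.0879%) were called, and 0 of the Hox genes. Hoxa4 had the smallest adjusted p of the named Hox genes in this test (0.0694), with all 3 WT_vehicle arrays and 2 each of KO_RA and KO_vehicle under background.

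The 16 genes include Tdgf1, Fgf4, Utf1, Dusp6 and Lgals3, which were higher in KO_RA and by less, or not, in KO_vehicle. They are 5 of the 8 genes with a positive value in this test, and Prorp, Pcbd1 and Tcea3 are given further below. Tdgf1 gave 19283, 23056 and 24908 in KO_vehicle and 10327, 11405 and 12209 in WT_vehicle, a difference of 2.29 with RA against 0.98 there (difference between them 1.31, SE 0.16, adjusted p = 0.00188). The genotype difference of Fgf4 was 2.07 with RA and 0.98 in vehicle, and these differed (adjusted p = 0.0116). Utf1, a chromatin factor of stem cells, had 1.43 with RA and 0.41 in vehicle (adjusted p of the difference between them 0.0116). Dusp6 had 0.69 with RA and -0.31 in vehicle (adjusted p of the difference 0.0414). Lgals3, a galectin, had 2.29 and 0.87 (adjusted p of the difference 0.00761). With the same test, among those lower in KO_RA, Gpr50 (adjusted p = 0.00761), Lifr (adjusted p = 0.0116), Sfrp5 (adjusted p = 0.0269) and the transcription factor Sox4 (adjusted p = 0.036) were called. In vehicle Lifr, Sfrp5 and Sox4 had differences of -0.15, -0.49 and -0.42, and for Gpr50 5 of the 6 vehicle arrays were under background. Without the run as a block 0 genes were called by limma in this test, with 865 at an unadjusted p under 0.05 against 1508 with the block, and fits with 1 array left out called between 2 and 12.

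Chromosome 11 stood apart. Of its 921 genes above background 325 (35.3%) were called higher and 45 (4.89%) lower in KO_RA, with a median difference of 0.35 that was 0.30, 0.39 and 0.38 within the runs. On the 19 other chromosomes the median ran from -0.11 to 0.02, and 6.76% to 10.9% of genes were called higher. The same chromosome had a median of 0.35 in vehicle, against -0.08 to 0.07 elsewhere. In gene order, with each chromosome split into 20 groups of like size, the first 2 groups of chromosome 11 had medians of 0.02 and -0.10 and the other 18 ranged from 0.18 to 0.54. In vehicle these were -0.02 and -0.04, and 0.23 to 0.52. Groups on other chromosomes, which hold 13 to 43 genes, ranged from -0.42 to 0.36 with RA. Most of these differences were small: 268 of the 325 genes called higher differed by under 1 on the log2 scale, and these 325 were 26.8% of all 1213 genes above background called higher. Slc16a3, Rara and Krt19 are among the chromosome 11 genes named above. DNA copy number was not measured on these arrays.

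**Figure D5:**
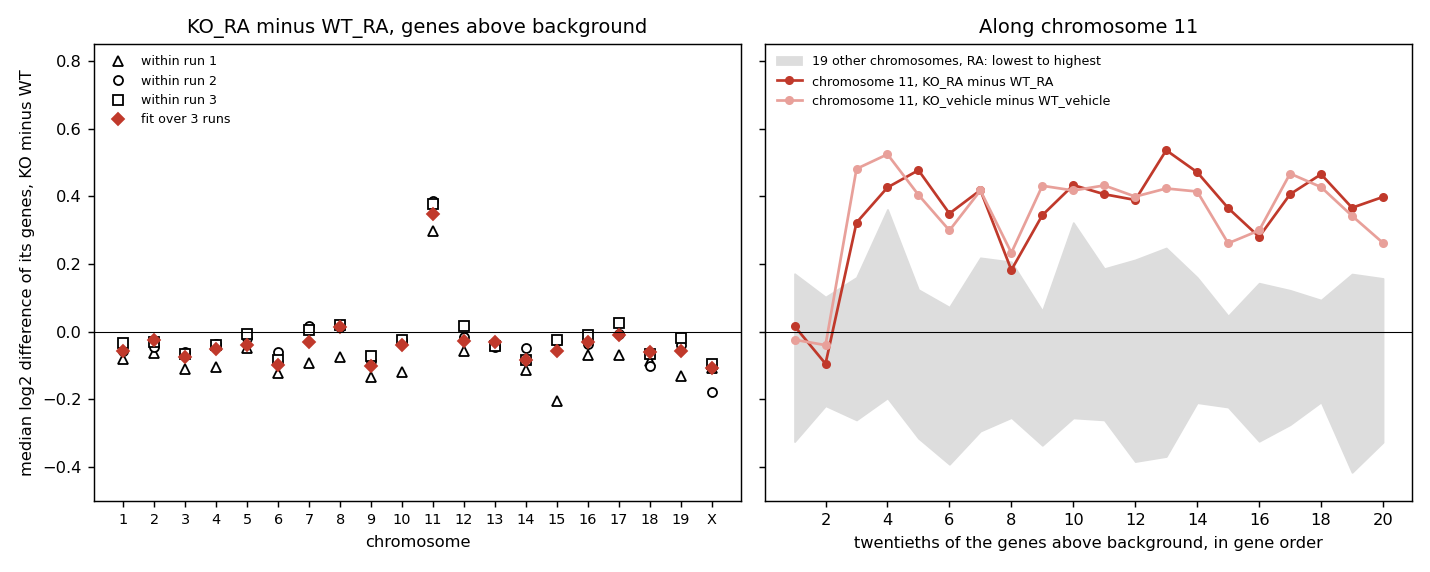
Left, the median log2 difference KO_RA minus WT_RA of the genes above background on each chromosome, within each run (open markers) and in the fit (filled). Right, the same along chromosome 11 in 20 groups of neighbouring genes, with RA (dark) and in vehicle (light), over the range of the 19 other chromosomes with RA (grey); chromosome 11 alone lies near 0.35, and its first 2 groups lie near 0.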

How the data were processed

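RNA of F9 cells (KO_RA, WT_RA, KO_vehicle and WT_vehicle, 3 arrays each) was read on 12 mouse expression arrays. The deposited intensity values are MAS5 signals, per the submitters' processing notes, and the trimmed mean was 500.0 on every array. The number of arrays limits the precision. Of 45101 probe sets 64 controls were left out. Of the other 45037, 34945 had 1 symbol, 932 several and 9160 none, and for each of 18193 genes the probe set of highest mean log2 signal was used. Other probe sets existed for 97 of 182 genes looked up, and 0 were called the opposite way. Not all were called the same way. The 1 other probe set was called the same way for Gpr50 and Cubn, and was not called for Hoxa5, Hoxa4, Hoxb3 and Rdh10. For Meg3 4 of 10 others were called the same way. log2(signal + 16) was fitted with limma 3.58.1 in R 4.3.3 over all 4 groups, with the fluidics run from the array records as a block (6 residual degrees of freedom) and an intensity trend, and p-values were adjusted by Benjamini-Hochberg. The background level is the 95th percentile of 83 sensory receptor probe sets. A lower limit of a fold sets the bright group's mean log2 signal against that level. On simulated data for KO_RA minus WT_RA over 45037 probe sets with 200 changed, 52% were recovered at a log2 change of 1 and 90% at 2, and 6.58% of calls were false.

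Members and gene lists were chosen with earlier results of these data known. The 36 lists asked for 1051 symbols, of which 949 were matched. Genes were named as the 14 largest rises and 14 largest falls without overlap between groups, up to 4 members of each list by adjusted p, the 6 smallest p-values of the difference between RA and vehicle, and the called retinoid and Hox members. Igfbp6, Gbx2, Stra8, Sox17, Gata4, Gata6, Krt18, Dab2, Sox2, Zfp42, Nanog, Klf2, Klf4, Klf5, Tbx3, Lefty1, Lefty2, Dusp6, Utf1 and the other genes whose difference changed with RA were named after their values were seen. Promoters and gene order come from RefSeq on GRCm38.p6. The alternatives tried were other scalings, pseudocounts, blocks, filters, weights and thresholds, and leaving out each array.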

Additional observations from a re-analysis of the deposited data

Results flagged for a closer look

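For 16 genes the genotype difference with RA and the one in vehicle were unequal by the limma test of the difference between them, at adjusted p-values from 0.00188 to 0.0453. Each value here is KO_RA minus WT_RA, less KO_vehicle minus WT_vehicle, on the log2 scale. It was positive for the co-receptor gene Tdgf1 (1.31), the galectin gene Lgals3 (1.42), the growth factor gene Fgf4 (1.09), the stem cell chromatin gene Utf1 (1.02) and the phosphatase gene Dusp6 (1.00). The other 3 positive values were those of Prorp, a subunit of mitochondrial RNase P (1.08), Pcbd1, a cofactor-recycling enzyme (1.59), and Tcea3, an elongation factor (1.11). The fitted value of Gpr50 was -5.71, which gives a direction but no size, since all 3 KO_RA, 2 KO_vehicle and all 3 WT_vehicle arrays were under background. The value was negative for the receptor gene Lifr (-1.13), the Wnt antagonist gene Sfrp5 (-2.59) and the transcription factor gene Sox4 (-1.02). The lipase gene Pla2g7 (-1.84), the membrane contact gene Esyt3 (-1.65), the kinase subunit gene Pik3r1 (-1.36) and the sulfate transporter gene Slc26a2 (-1.14) were negative too. Without the run as a block, and likewise without the intensity trend, 0 genes were called by limma, with 865 and 1139 at an unadjusted p under 0.05.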

How the results depend on the processing

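Of the 107 genes called between KO_RA and WT_RA whose values are given, 85 were called in all 25 alternative fits and none changed sign. These fits kept the adjusted p of 0.05 and no minimum difference. The 2 stricter thresholds given below were not part of this count. The alternatives with the most losses were the fit without the intensity trend (18 genes) and the one with arrays centred on their medians (12). Centring moved the median of all genes from -0.05 to 0.08. The 2646 genes called between KO_RA and WT_RA became 1373 without the run block, 926 after centring (449 higher, 477 lower), 875 without the trend, 1726 at an adjusted p of 0.01 and 894 with a log2 difference of at least 1. Fits with 1 array left out called 1748 to 3158. For KO_vehicle and WT_vehicle the 2465 genes became 1168, 1053, 683, 1530 and 760 under the same 5 alternatives in that order. The 16 genes whose difference changed with RA became 0 without the block, 0 without the trend, 6 after quantile normalization, 1 after centring, 8 over probe sets above background, 35 with array weights and 3 at an adjusted p of 0.01. With run and chip lot as blocks there were 25 and without run 1 there were 9, both chosen after seeing the data, and 1 array left out gave 2 to 12. The Rarg difference of 0.12 was 0.43 without run 1, and ran from -0.04 to 0.38 with 1 array left out, turning sign without KO_RA replicate 2 (-0.0359) or WT_RA replicate 2 (-0.0101), both arrays of run 3. The chromosome 11 median exceeded that of the other chromosomes by 0.40, by 0.36 with a pseudocount of 64, by 0.42 without run 1, and by 0.39 to 0.42 with 1 array left out, all added after seeing the data. The cause of these changes was not tested. Genes near background are limited by signal.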
